A study of Mus musculus with 6 samples.

Results

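Genes of TGF-beta and bone morphogenetic protein (BMP) signaling were examined in primary mammary epithelial cells and in mammary tumor cell lines without JNK. The set has 10 genes chosen by symbol, out of 37753 entries with expression values: the ligands *Tgfb1*, *Tgfb2* and *Tgfb3*, the receptors *Tgfbr1*, *Tgfbr2* and *Tgfbr3*, the intracellular proteins *Smad3* and *Smad7*, the activin subunit *Inhba* and the BMP ligand *Bmp4*. Each symbol stood on a single entry of the table. The controls (MEC, n = 3) were WAPCre+ mammary epithelial cells of strain C57/Bl6J, which came from 3 to 5 virgin females aged 10 to 12 weeks and were grown as primary cultures on collagen I. The other group (MEKO, n = 3) was the Mapk8KO Mapk9KO Cre+ breast tumor cell lines 199, 233 and 336 of the same strain, independent lines moved to standard dishes after 2 passages on collagen I. Cre was driven in both groups by the promoter of *Wap*, a milk protein gene of luminal cells, and *Mapk8* and *Mapk9*, which encode JNK, were deleted only in the tumor mice. The age of the tumor mice is not given for these lines in the sources used here. Genotype, tumor origin, parity, age of the mice, culture medium and time in culture change together between the groups and cannot be told apart.

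TGF-beta ligands are made as latent dimers that are held in the matrix until they are activated. They bind a type II receptor (TGFBR2), which activates a type I receptor (TGFBR1), and this complex phosphorylates SMAD2 and SMAD3. Activins, dimers of inhibin beta subunits such as the product of *Inhba*, use other receptors but the same SMADs, while BMP ligands act through SMAD1, SMAD5 and SMAD9. In the mammary gland TGF-beta restrains the growth of the epithelium, and the pathways induce their own inhibitors, SMAD7 among them.

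Expression was measured by RNA-seq in FPKM, fragments scaled to the length of the transcript and the size of the library, so that levels can be compared between genes. The libraries held values above 0 for 17343 to 18741 entries, and their depth relative to MEC 1 was 0.92 to 1.30 by the ratios of small values. The read numbers are not known, and no counting interval was computed. *Mapk8* had 19.2 to 25.1 FPKM in MEC and 1.37 to 5.93 FPKM in MEKO, and *Mapk9* had 21.5 to 24.4 and 3.07 to 7.62 FPKM, each line below each MEC library. Luminal markers (9 genes, *Epcam* and *Krt8* among them) summed to 6230 to 10200 FPKM in MEC and 986 to 3020 FPKM in MEKO. Markers of basal cells (8 genes) summed to 1560 to 2850 FPKM in MEC and 2280 FPKM in line 199, against 10.6 and 58.7 FPKM in lines 233 and 336. Markers of fibroblasts (10 genes) summed to 148 to 240 FPKM in MEC, 1420 FPKM in line 199, 281 FPKM in line 233 and 73.8 FPKM in line 336. Endothelial (5 genes), immune (5 genes) and adipocyte (4 genes) markers summed to at most 16.7, 24.9 and 11.8 FPKM in any library. Of the 281 FPKM in line 233, *Fbln2* made up 278, while *Col1a1* was at 1.08 FPKM there, against 44.2 to 74.7 FPKM in MEC and 600 FPKM in line 199. Both genes were named after their values were seen. Line 199 thus stood apart from the other tumor lines in the sums of basal and fibroblast markers, and line 336 in that of immune markers. Not every marker followed its sum. In line 199 *Dcn*, *Lum* and *Dpt* were at 0.311, 0.0264 and 0.0120 FPKM, against MEC means of 5.13, 0.966 and 0.514 FPKM. *Myh11* and *Oxtr* were at 0.0812 and 0.0125 FPKM there, against means of 32.3 and 12.0 FPKM. The other markers of both lists were highest in line 199 among the lines. *Cd68* made up 23.5 FPKM of the immune sum in line 336. These genes, too, were named after their values were seen.

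RefSeq promoter windows of GRCm38.p6 were matched for 7 of the 10 genes, all but *Tgfb3*, *Tgfbr3* and *Smad7*. The 250 bases before the start are shown for *Bmp4*, the gene with the largest difference between the groups, at chr14:46390670-46390919 on the minus strand, and for *Tgfb2*, whose log2 level spanned the widest range of the TGF-beta ligands among the tumor lines, at chr1:186705990-186706239 on the minus strand. Capitals mark CAGACA, a short element that SMAD proteins can bind.
Bmp4: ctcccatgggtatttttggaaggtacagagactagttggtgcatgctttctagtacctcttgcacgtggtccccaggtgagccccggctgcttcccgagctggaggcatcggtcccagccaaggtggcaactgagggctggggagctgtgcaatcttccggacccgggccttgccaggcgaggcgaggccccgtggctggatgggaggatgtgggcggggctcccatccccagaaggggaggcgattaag
Tgfb2: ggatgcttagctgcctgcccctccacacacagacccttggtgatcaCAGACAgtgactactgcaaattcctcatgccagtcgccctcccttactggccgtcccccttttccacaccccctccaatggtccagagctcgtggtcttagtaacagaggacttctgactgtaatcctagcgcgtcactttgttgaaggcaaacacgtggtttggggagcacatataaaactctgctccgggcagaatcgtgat

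CAGACA was searched on both strands and was in 2 of the 8 windows of these genes, the one of *Tgfb2* at position -204 from the start and 1 of the 2 windows of *Tgfbr1* at -203. It was in 21.0% of all 32851 promoter windows of this length. The AP1 site TGANTCA and the related element TGACGTCA, to which factors downstream of JNK can bind, had no match in the 8 windows, and were in 7.81% and 1.79% of all windows. These are matches of letters only.

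Of the 10 genes, *Tgfb3* was lower and *Bmp4* was higher in MEKO than in MEC by limma on log2(FPKM + 1), with an adjusted p under 0.05 and an absolute log2 fold change over 0.75. All 10 passed the filter on low values, a mean of at least 1 FPKM over the 6 libraries, although *Bmp4* passed only through its values in MEKO. Of the 12461 genes tested, 9.90% passed both thresholds, 2.64% as higher and 7.26% as lower, so 1 gene in each direction of 10 is near that background. The median log2 fold change was -0.38 over the 10 genes and 0.01 over all genes tested, with 8 of the 10 below 0. With quantile normalization the split over all genes was 477 higher and 783 lower, against 329 and 905.

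**Figure D1:**
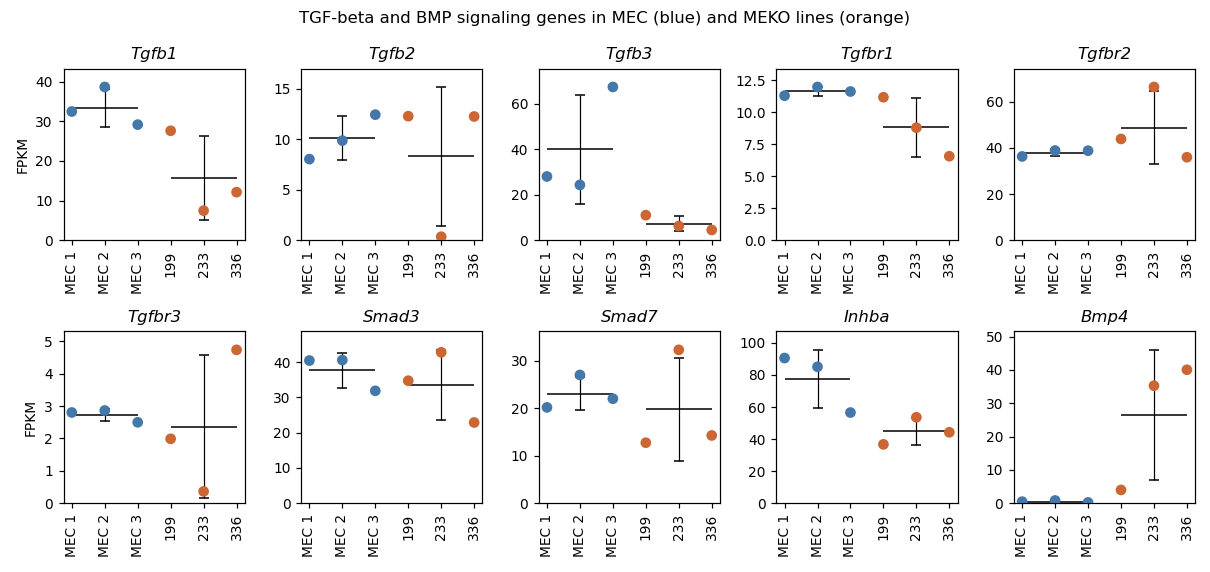
Expression of the 10 genes in each library, in FPKM on a linear axis that differs between panels. Points are single libraries (MEC in blue, MEKO lines in orange), and lines and bars give the mean and SD of each group (n = 3). *Bmp4* sits under 0.8 FPKM in each MEC library and at 3.96 to 40.1 FPKM in MEKO, while *Tgfb3* is at 24.3 to 67.3 FPKM in MEC and 4.51 to 11.02 FPKM in MEKO.

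The order of the genes by level differed between the groups. In MEC it ran from *Inhba* at 77.4 ± 18.3 FPKM (SD, n = 3) through *Tgfb3* at 39.9 ± 23.8, *Tgfbr2* at 38.0 ± 1.46, *Smad3* at 37.6 ± 5.01, *Tgfb1* at 33.4 ± 4.82 and *Smad7* at 23.0 ± 3.54 FPKM to *Tgfbr1* at 11.6 ± 0.342, *Tgfb2* at 10.1 ± 2.21, *Tgfbr3* at 2.72 ± 0.195 and *Bmp4* at 0.485 ± 0.295 FPKM. The ranges of *Tgfb3*, *Tgfbr2*, *Smad3* and *Tgfb1* overlapped, so their order was within the spread, as it was for *Tgfbr1* and *Tgfb2*. *Tgfb3* also overlapped *Inhba* and *Smad7*. It was above *Inhba* in MEC 3 (67.3 against 56.6 FPKM) and below *Smad7* in MEC 2 (24.3 against 27.0 FPKM). In MEKO the highest means were those of *Tgfbr2* at 48.8 ± 15.8, *Inhba* at 44.8 ± 8.46, *Smad3* at 33.5 ± 10.0 and *Bmp4* at 26.4 ± 19.6 FPKM. *Bmp4* was thus the lowest of the 10 in each MEC library and the fourth by mean in MEKO, where it was ninth in line 199 and second in line 336.

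Among the TGF-beta ligands, *Tgfb3* (chromosome 12 of GRCm38, 86056745 to 86079041) had 28.0, 24.3 and 67.3 FPKM in MEC 1 to 3 and 11.02, 6.26 and 4.51 FPKM in lines 199, 233 and 336. Each tumor line was below each MEC library, and MEC 3 was the highest by a wide margin. The mean in MEC was 5.49 times that in MEKO, and the log2 fold change was -2.23 (standard error 0.46, 95% interval -3.34 to -1.13, limma adjusted p = 0.0321). Without line 199 the limma adjusted p was 0.0201. It was 0.0933 without MEC 1, 0.0741 without MEC 2, 0.073 without MEC 3, 0.0771 without line 233 and 0.0751 without line 336, and the log2 fold change stayed between -2.54 and -1.79. MEC 3, with the most *Tgfb3*, had the lowest sums of luminal, basal, fibroblast, endothelial and adipocyte markers of the MEC libraries and the highest sum of immune markers, and their part in this value was not tested. In these bulk cultures fewer cells of a type and less RNA per cell cannot be told apart. The exons of *Tgfb3* overlap *Gm37804* and *Gm48008* on the opposite strand over 4.82% and 7.60% of their bases, and whether counting used the strand is not given in the sources used here.

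*Tgfb1* (chromosome 7, 25687002 to 25705077), the ligand made most widely in the body, had 32.5, 38.6 and 29.1 FPKM in MEC and 27.6, 7.46 and 12.1 FPKM in lines 199, 233 and 336. All 3 lines were below MEC, but line 199 lay close to MEC 3. The log2 fold change was -1.22 (standard error 0.43, 95% interval -2.27 to -0.17), and it did not pass the adjustment (limma adjusted p = 0.131). Without line 199 it was -1.70 (limma adjusted p = 0.0102), which passed both thresholds.

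*Tgfb2* (chromosome 1, 186622792 to 186705989) had 8.03, 9.87 and 12.4 FPKM in MEC and 12.3, 0.352 and 12.3 FPKM in lines 199, 233 and 336. Lines 199 and 336 lay within the MEC range, and line 233 had 3.48% of the MEC mean. The log2 fold change over the lines was -0.82 with a 95% interval of -2.96 to 1.32 (limma adjusted p = 0.574), and it was 0.27 without line 233 (limma adjusted p = 0.469). The exact permutation p (two-sided) of *Tgfb2* was 0.8.

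The values of the 3 ligands were also summed in each library, a measure chosen after the values were seen. The sum was 68.5, 72.8 and 108.9 FPKM in MEC and 50.9, 14.1 and 28.9 FPKM in lines 199, 233 and 336, so the groups did not overlap and p was 0.1 by a two-sided exact permutation test, its lower limit for 3 against 3. *Tgfb2* was 11.4% to 13.6% of the sum in MEC. In lines 199, 233 and 336 it was 24.1%, 2.501% and 42.4%, outside the MEC range in each line but not in 1 direction. *Tgfb3* was 33.4% to 61.8% of the sum in MEC and 21.6%, 44.5% and 15.6% in the lines, with line 233 inside the MEC range.

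The fitted log2 fold changes of the receptors were all closer to 0 than those of the ligands, a difference that was not tested and that did not hold without line 233, where *Tgfb2* was at 0.27 and *Tgfbr1* at -0.40. *Tgfbr2* (chromosome 9, 116084293 to 116175360), the type II receptor, had 36.3, 38.9 and 38.8 FPKM in MEC and 43.9, 66.4 and 36.0 FPKM in lines 199, 233 and 336. Line 233 was the highest library and line 336 lay just below MEC, so the groups overlapped. Its log2 fold change was 0.31 with a 95% interval of -0.26 to 0.87 (limma adjusted p = 0.435).

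*Tgfbr1* (chromosome 4, 47353222 to 47414931), the type I receptor and kinase of the complex, had 11.3, 12.0 and 11.6 FPKM in MEC and 11.2, 8.80 and 6.57 FPKM in the lines in the same order. The lines were below MEC, line 199 by very little. Over the lines this gave a log2 fold change of -0.39 with a 95% interval of -0.89 to 0.11 (limma adjusted p = 0.276). The ratio of *Tgfbr2* to *Tgfbr1*, chosen after the values were seen, was 3.21 to 3.34 in MEC and 3.93, 7.55 and 5.48 in lines 199, 233 and 336 (two-sided exact permutation p = 0.1, its lower limit).

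*Tgfbr3* (chromosome 5, 107106570 to 107289629) encodes betaglycan, a co-receptor that presents TGF-beta, above all TGF-beta 2, to TGFBR2. It had 2.80, 2.86 and 2.497 FPKM in MEC and 1.99, 0.363 and 4.73 FPKM in lines 199, 233 and 336. The narrow MEC range lay between the lines, with lines 199 and 233 below it and line 336 above. The fitted log2 fold change was -0.38 with a 95% interval of -1.60 to 0.84 (limma adjusted p = 0.658), and 0.16 without line 233 (limma adjusted p = 0.795). The exons of *Tgfb2* and *Tgfbr3* overlap *Gm29491* (opposite strand) and *Gm43422* (same strand) over 2.14% and 4.54% of their bases. Line 233 was the lowest of the 6 libraries in both *Tgfb2* and *Tgfbr3*.

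*Smad3* (chromosome 9, 63646767 to 63757994), which carries the signal of TGF-beta and activin to the nucleus, had 40.5, 40.6 and 31.9 FPKM in MEC and 34.7, 42.8 and 22.9 FPKM in lines 199, 233 and 336. The groups overlapped, with line 233 the highest library and line 336 the lowest. Its log2 fold change was -0.20 with a 95% interval of -0.81 to 0.41 (limma adjusted p = 0.636), and 0.04 without line 336 (limma adjusted p = 0.904).

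*Smad7* (chromosome 18, 75367529 to 75395935), an inhibitor that TGF-beta itself induces and that blocks the type I receptor, had 20.2, 27.0 and 22.0 FPKM in MEC and 12.7, 32.3 and 14.3 FPKM in the lines. Lines 199 and 336 were below the MEC range and line 233 was above it. The fitted log2 fold change was -0.32 with a 95% interval of -1.18 to 0.53 (limma adjusted p = 0.582).

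*Inhba* (chromosome 13, 16011851 to 16031621), whose product dimerizes to activin A, had 90.6, 85.1 and 56.6 FPKM in MEC and 36.7, 53.6 and 44.2 FPKM in lines 199, 233 and 336. Each line was below each MEC library, although line 233 came close to MEC 3. The log2 fold change was -0.76 (standard error 0.24, 95% interval -1.33 to -0.19, limma adjusted p = 0.0973), and it lay between -0.97 and -0.63 over the alternatives, and the limma adjusted p between 0.0748 and 0.294.

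*Bmp4* (chromosome 14, 46383520 to 46390669), a BMP ligand with a role in the growth of the mammary bud, had 0.448, 0.798 and 0.211 FPKM in MEC and 3.96, 35.3 and 40.1 FPKM in lines 199, 233 and 336. Each line was above each MEC library, with line 199 well below the other lines. The mean in MEKO was 54.5 times that in MEC, and the log2 fold change was 3.73 (standard error 0.81, 95% interval 1.79 to 5.67, limma adjusted p = 0.0372). Since the MEC values are close to 0, the pseudocount of 1 lowers this value, and with a pseudocount of 0.1 it was 5.07. Without line 199 the log2 fold change was 4.72 (limma adjusted p = 0.000793). The adjusted p was 0.13 without MEC 1, 0.115 without MEC 2, 0.138 without MEC 3, 0.0877 without line 233 and 0.0818 without line 336, with log2 fold changes from 3.19 to 3.88. The protein-coding gene *Gm15217* on the opposite strand overlaps 3.96% of the exon bases of *Bmp4*.

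**Figure D2:**
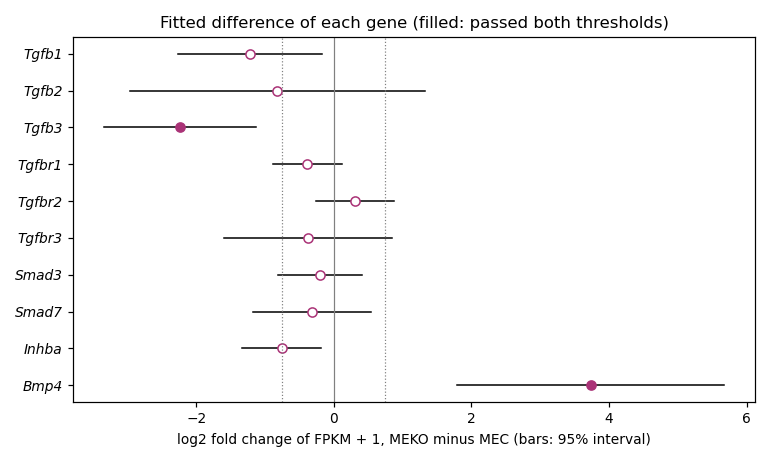
Log2 fold change of FPKM + 1 for each gene, as MEKO minus MEC, with its 95% interval from limma (n = 3 a group). Filled points passed both thresholds and dotted lines mark 0.75 in either direction. *Tgfb3* at -2.23 and *Bmp4* at 3.73 are filled, and the intervals of *Tgfb1* and *Inhba* lie below 0 although these genes did not pass the adjustment.

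The values of 5 of the 10 genes did not overlap between MEC and MEKO, *Tgfb1*, *Tgfb3*, *Tgfbr1* and *Inhba* below and *Bmp4* above. Each had a two-sided exact permutation p of 0.1, the lower limit for 3 libraries a group. The groups were apart in 37.2% of all genes tested, 18.7% lower and 18.5% higher in MEKO. The other 5 genes had exact permutation p values between 0.4 and 0.8.

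Each tumor line was also set against the range of the 3 MEC values. Line 199 had 6 of the 10 genes below the range and 2 above it, line 233 had 6 below and 4 above, and line 336 had 7 below and 2 above. Among all genes tested, 79.3%, 75.2% and 76.6% lay outside the range in these lines, so counts of 8, 10 and 9 of 10 are not far from the background. By direction, 39.1% of all genes were below and 40.2% above the range in line 199, 37.9% and 37.4% in line 233, and 37.4% and 39.2% in line 336. In log2(FPKM + 1) relative to the MEC mean, *Tgfb3* was at -1.62, -2.35 and -2.74 and *Bmp4* at 1.76, 4.63 and 4.81 in lines 199, 233 and 336. Line 199 was the nearest to MEC in *Tgfb1*, *Tgfb3*, *Tgfbr1*, *Tgfbr3*, *Smad3* and *Bmp4*, but the farthest from it in *Inhba* and *Smad7*. With 1 library a line, differences between lines have no replicate check.

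**Figure D3:**
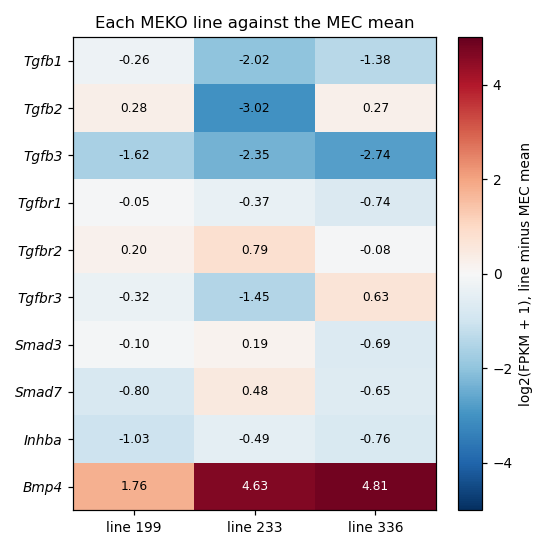
Difference of each tumor line (columns) from the MEC mean for each gene (rows), in log2(FPKM + 1), with blue for lower and red for higher. *Tgfb3* is lower and *Bmp4* higher in each column, while *Tgfb2* is at -3.02 in line 233 and at 0.28 and 0.27 in lines 199 and 336.

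The other genes of the pathways were taken from lists written by role, with earlier results of these data known. They held 115 genes besides the 10, all of which had an entry. Of these, 75 passed the filter on low values and 40 did not. In MEKO 19 of the 75 were lower (25.3%) and 2 were higher (2.67%), against 7.26% and 2.64% of all genes tested, and their median log2 fold change was -0.77. Of the lower genes, *Acvrl1*, *Itgb8*, *Dcn*, *Sostdc1*, *Hey1* and *Chrdl2* had a mean under 1 FPKM in MEKO and passed the filter only through MEC. The number lower was 3 without MEC 1, 4 without MEC 2, 6 without MEC 3, 33 without line 199 and 13 without line 233 or line 336, and the number higher was 8 without line 199 and 4 without line 233. With no filter on low values 11 were lower. Over all genes tested, those lower were 211 without MEC 1, 245 without MEC 2 and 388 without MEC 3, against 905 with all libraries. They were 1398 without line 199, 781 without line 233, 708 without line 336 and 833 with no filter. Those higher were 568 without line 199 and 248 without line 233, against 329. Of the 21 pathway genes called, 5 were called with each library left out in turn, namely *Fst*, *Hmga2*, *Bhlhe40*, *Id4* and *Hey1*, and 16 lost the call without at least 1 library. The lists hold genes of basal, stromal and endothelial cells as well, whose markers differ between the groups as given above, and their part in these counts was not tested.

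Most other ligands were hardly expressed. Of 28 ligands besides the members, 24 were under the filter, among them *Bmp2* at no more than 0.896 FPKM in any library and *Nodal* at no more than 0.0464 FPKM, both named after their values were seen. The inhibin subunit *Inhbb*, which forms activin B, fell in MEKO from 59.9 ± 11.4 to 11.8 ± 7.64 FPKM (SD, n = 3, log2 fold change -2.51, limma adjusted p = 0.045). It was called in 2 of the 6 fits that left out a library, those without line 199 or line 233, and the limma adjusted p reached 0.16 without MEC 3. With a pseudocount of 0.1 the limma adjusted p of *Inhbb* was 0.0556. *Bmp7*, named after its values were seen, had 5.40, 5.32 and 4.14 FPKM in MEC and 0.756, 15.7 and 9.09 FPKM in lines 199, 233 and 336 (limma adjusted p = 0.909). Without line 199 it passed both thresholds as higher, with a log2 fold change of 1.13 (limma adjusted p = 0.0418). The ratio of *Bmp4* to *Bmp7*, chosen after the values were seen, was 0.0829, 0.1501 and 0.0510 in MEC and 2.24 to 5.24 in MEKO, so *Bmp7* exceeded *Bmp4* in each MEC library and was below it in each line.

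Of 9 tested receptors besides the members, 4 (44.4%, against 7.26% of all genes tested) were lower in MEKO. They were *Acvrl1*, a type I receptor for BMP9 best known from endothelium, *Acvr1b*, the type I receptor of activin, *Bmpr1a*, a type I receptor of BMP4, and *Rgma*, a BMP co-receptor. *Acvrl1* fell from 4.38 ± 1.16 to 0.402 ± 0.214 FPKM (SD, n = 3, log2 fold change -1.93, limma adjusted p = 0.00903). Endothelial markers summed to 14.1, 16.7 and 1.99 FPKM in MEC and 0.209 to 0.484 FPKM in the lines, and their part in the fall of *Acvrl1* was not tested. *Acvr1b* fell from 8.26 ± 0.235 to 3.59 ± 0.589 FPKM (limma adjusted p = 0.0179) and *Bmpr1a* from 32.8 ± 4.07 to 18.3 ± 3.59 FPKM (limma adjusted p = 0.0429). The type I receptor *Acvr1* had a log2 fold change of -1.33 (limma adjusted p = 0.0543), and without line 199 it passed at -1.70 (limma adjusted p = 0.00315). With each library left out in turn, *Acvrl1* was called in 4 of 6 fits and *Acvr1b* in 3, each lost only without MEC libraries. *Rgma* was called only without line 199 and *Bmpr1a* only without line 233, with limma adjusted p up to 0.144 and 0.149 in the other fits. The tested type II receptors *Acvr2a* and *Bmpr2* had log2 fold changes of 0.06 (95% interval -0.42 to 0.53) and -0.39 (95% interval -0.87 to 0.09).

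Of the 5 other SMADs tested, 0 passed the adjustment in limma and 2, *Smad1* and *Smad2*, had an unadjusted p under 0.05. Of all 12461 genes tested, 3509 had an unadjusted limma p under 0.05, and 9.90% passed both thresholds. *Smad2*, the partner of SMAD3, had 39.9 ± 1.11 FPKM in MEC and 49.97 ± 3.75 FPKM in MEKO, and *Smad4*, shared by both branches, had 32.5 ± 2.28 and 36.2 ± 6.15 FPKM. *Smad1*, of the BMP branch, had 22.3 ± 3.49 and 14.4 ± 4.24 FPKM (log2 fold change -0.63, limma adjusted p = 0.145), and without line 199 it passed at -0.84 (limma adjusted p = 0.03). Among corepressors of SMADs, *Tgif1* fell from 179 ± 4.78 to 82.5 ± 15.1 FPKM (log2 fold change -1.12, limma adjusted p = 0.0138) and *Ski* from 32.1 ± 3.98 to 16.9 ± 4.11 FPKM (log2 fold change -0.91, limma adjusted p = 0.0429). *Tgif1* lost the call without any of the MEC libraries (limma adjusted p up to 0.0748). Among the fits with a library left out, *Ski* kept it only without line 199 (limma adjusted p up to 0.146 in the others).

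Of 11 tested genes for storage and activation of the ligands, 3 were lower (27.3%, against 7.26% of all genes tested). All 11 had a log2 fold change below 0, with a median of -1.05 against 0.01 over all genes tested. *Itgb8*, an integrin subunit that activates latent TGF-beta, fell from 8.51 ± 5.79 to 0.200 ± 0.136 FPKM (log2 fold change -2.83, limma adjusted p = 0.0132). *Furin*, the protease that cleaves the precursors of these ligands, fell from 60.0 ± 5.72 to 25.4 ± 6.41 FPKM (log2 fold change -1.24, limma adjusted p = 0.0214). *Bmp1*, which is a protease and no ligand in spite of its name, fell from 63.4 ± 8.41 to 27.7 ± 9.97 FPKM (limma adjusted p = 0.0487). *Itgb8* lost the call without MEC 1 (limma adjusted p = 0.0592) and *Furin* without any of the MEC libraries (limma adjusted p up to 0.102). *Bmp1* lost it without any of the MEC libraries or line 233, with a limma adjusted p up to 0.167, and also with no filter on low values (0.0748). It lost it as well with a filter of 5 FPKM (0.0531), a pseudocount of 0.1 (0.0523), upper-quartile scaling (0.0518) or no mean-variance trend (0.0566). *Thbs1*, an activator named after its value was seen, was the most abundant gene of the list, with 709 to 873 FPKM in MEC and 574 to 859 FPKM in MEKO. Its log2 fold change was -0.13 (95% interval -0.58 to 0.33), and it reached 0.020 with a library left out.

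Antagonists moved in both directions. Of the 14 tested, 1 was higher (7.14%) and 5 were lower (35.7%), against 2.64% and 7.26% of all genes tested. *Fst* encodes follistatin, which binds activin and some BMPs. It had 27.1, 24.2 and 10.3 FPKM in MEC and 198, 177 and 199 FPKM in lines 199, 233 and 336, which gave a log2 fold change of 3.26 (95% interval 2.42 to 4.11, limma adjusted p = 0.00446). *Fstl3*, a related binding protein of activin, fell from 11.9 ± 2.70 to 1.23 ± 1.53 FPKM (log2 fold change -2.72, limma adjusted p = 0.0193). *Pmepa1*, a TGF-beta target that holds back SMAD2 and SMAD3, fell from 260 ± 32.7 to 66.7 ± 35.1 FPKM (log2 fold change -2.10, limma adjusted p = 0.0296). *Dcn*, a matrix proteoglycan of fibroblasts that binds TGF-beta, *Sostdc1* and *Chrdl2* were the other genes that fell, with log2 fold changes of -2.30, -2.06 and -1.73. *Chrdl2* was outside the 5 largest called changes of the list and was named after its values were seen. With a library left out, *Fstl3*, *Pmepa1* and *Sostdc1* were each called in 2 of 6 fits, with limma adjusted p up to 0.0872, 0.116 and 0.124, and *Dcn* in 4. *Chrdl2* passed the filter in 4 of these fits and was called in 3. The BMP antagonist *Nog*, named after its values were seen, had 0.0180 to 0.268 FPKM in MEC and 1.04, 2.45 and 8.02 FPKM in the lines (log2 fold change 1.80, limma adjusted p = 0.0899). *Nog* passed the filter only through its values in MEKO. With a library left out it was tested in 5 of 6 fits and called only without line 199, at 2.29 (limma adjusted p = 0.0251).

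The ratio of *Fst* to *Inhba* was 0.299, 0.285 and 0.181 in MEC and 5.40, 3.30 and 4.50 in lines 199, 233 and 336, so *Fst* was below *Inhba* in each MEC library and above it in each line. Against the sum of *Inhba* and *Inhbb* the ratio was 0.147 ± 0.0598 in MEC and 3.39 ± 0.306 in MEKO (SD, n = 3). Both ratios had a two-sided exact permutation p of 0.1, its lower limit, and both were chosen after the values were seen.

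**Figure D4:**
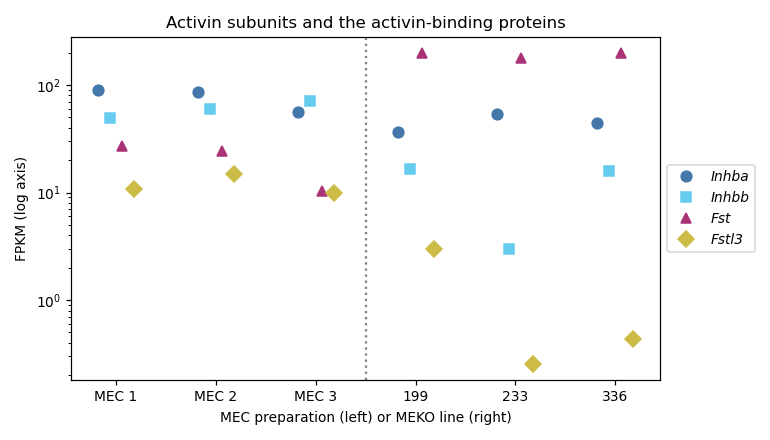
Expression of the activin subunits *Inhba* and *Inhbb* and of *Fst* and *Fstl3*, which encode proteins that bind activin, in FPKM on a log axis, with 1 point per gene and library. *Fst* is at 10.3 to 27.1 FPKM in MEC and 177 to 199 FPKM in the MEKO lines, where the other genes shown are at lower levels than in MEC.

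Of 20 genes that TGF-beta is known to induce, 3 were lower and 1 was higher in MEKO. Among all genes tested, 7.26% were lower and 2.64% were higher by the same thresholds. *Tnc*, which encodes the matrix protein tenascin C, fell from 370 ± 71.7 to 77.9 ± 68.4 FPKM (limma adjusted p = 0.0378), *Bhlhe40* from 207 ± 33.3 to 57.2 ± 10.9 FPKM (limma adjusted p = 0.00484), and *Pmepa1* is given above. *Tnc* had 157 FPKM in line 199 and 39.8 and 37.0 FPKM in the other lines, and it was called only without line 199 (limma adjusted p = 0.00116), with a limma adjusted p up to 0.142 in the other fits with a library left out. *Hmga2*, a chromatin protein of embryonic and tumor cells, rose from 1.83 ± 0.561 to 91.7 ± 21.0 FPKM (log2 fold change 5.03, limma adjusted p = 0.000645). The median log2 fold change of the list was -1.40, with 16 of 20 below 0, against a median of 0.01 over all genes tested. *Acta2* and *Tagln*, named after their values were seen, were high in line 199 alone among the lines. *Acta2*, a gene of contractile basal cells and myofibroblasts, had 719 FPKM in line 199 and 1.13 and 1.29 FPKM in the others, against 736 to 1452 FPKM in MEC. *Tagln* had 184 FPKM in line 199, 1.18 FPKM in line 233 and 1.46 FPKM in line 336, against 361 to 792 FPKM in MEC. Without line 199 both were called lower, with limma adjusted p of 0.000368 for *Acta2* and 0.00064 for *Tagln*. *Acta2* is itself on the list of basal markers, and line 199 had the highest sums of basal and fibroblast markers among the lines.

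Of 8 tested genes that BMP induces, 2 were lower (25.0%, against 7.26% of all genes tested). *Id4* fell from 26.8 ± 3.31 to 2.07 ± 1.34 FPKM (log2 fold change -3.26, limma adjusted p = 0.00361) and *Hey1*, also a target of Notch, from 11.2 ± 1.14 to 0.572 ± 0.748 FPKM (log2 fold change -3.05, limma adjusted p = 0.0051). *Id1*, named after its values were seen, had 17.9, 19.4 and 19.1 FPKM in MEC and 34.5, 111 and 49.4 FPKM in lines 199, 233 and 336. Its values were higher in each line than in MEC, with a log2 fold change of 1.56 (limma adjusted p = 0.0606), and it passed both thresholds without line 199 (limma adjusted p = 0.019) or line 233 (limma adjusted p = 0.0368). *Id2* and *Id3* are also named after their values were seen. *Id2* had 19.3 to 36.1 FPKM in MEC, 9.56 FPKM in line 199 and 178 and 90.4 FPKM in lines 233 and 336, and it passed as higher only without line 199 (limma adjusted p = 0.0167). *Id3* had 46.2 to 82.1 FPKM in MEC and 49.0 to 121 FPKM in MEKO. The genes of this list thus did not move together, and their median log2 fold change was -0.02.

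**Figure D5:**
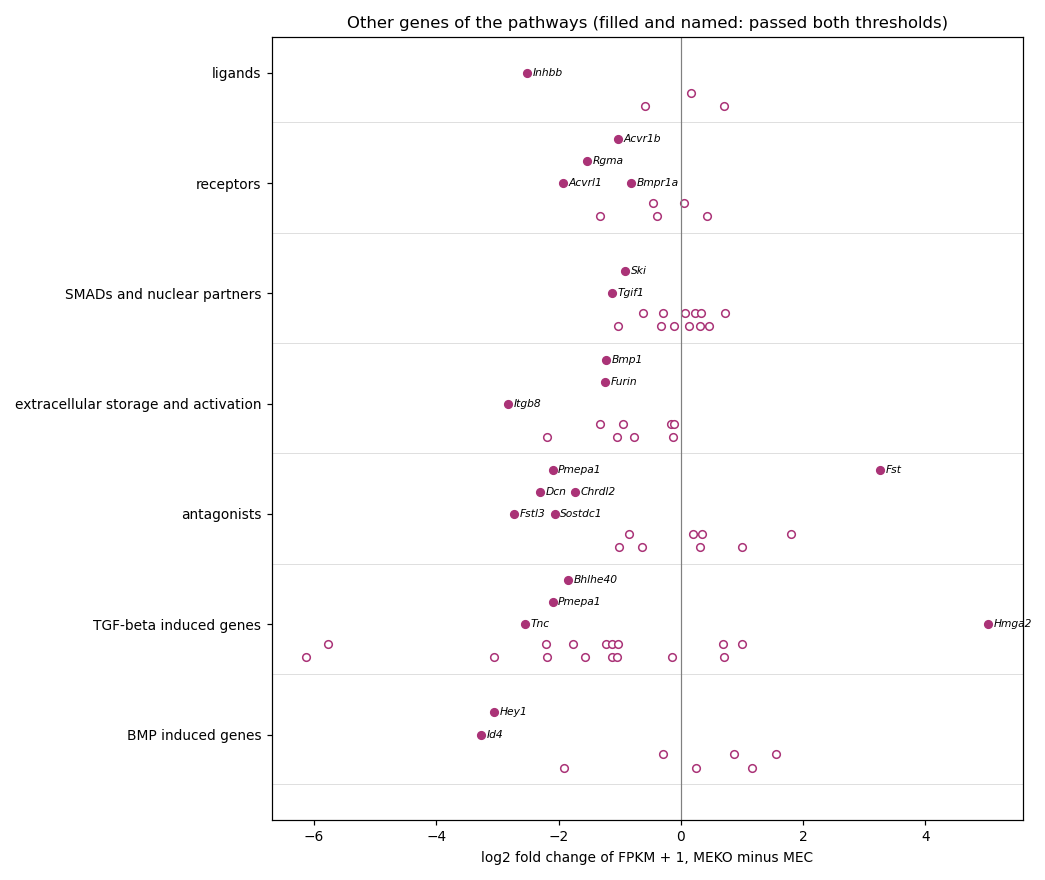
Log2 fold change of FPKM + 1 (MEKO minus MEC) for the tested genes of 7 lists, 1 point a gene, with the vertical offset inside a list only for legibility. Filled and named points passed both thresholds, 19 different genes to the left of 0 and *Fst* and *Hmga2* to the right.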

How the data were processed

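RNA from 3 MEC preparations and 3 MEKO lines was sequenced by the authors as paired-end libraries. The reads were trimmed with Trimmomatic, aligned to GRCm38 (mm10) with Bowtie2 and TopHat2 2.0.14, and quantified per gene with Cufflinks 2.2.1. The deposited table gives FPKM values, which the authors normalized for transcript length and library size. Of 37755 entries, 2 held no values. The gene annotation and the strand setting are not given in the sources used here. The authors' Cuffdiff comparison needs reads and was not repeated.

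Entries with a mean of at least 1 FPKM were compared on log2(FPKM + 1) by limma 3.58.1 (R 4.3.3), whose prior variance followed mean expression, and p-values were adjusted by Benjamini-Hochberg over all 12461, at an adjusted p under 0.05 and an absolute log2 fold change over 0.75. The step was tested on simulated data. Members also had two-sided exact permutation tests. Positions are from GENCODE M21 and promoters from RefSeq, both on GRCm38. The members and lists were chosen with earlier results of these data known. Every member was named, of each list up to the 5 largest called changes, and SMADs and receptors of types I and II. *Mapk8* and *Mapk9* were named as the check of the labels, and *Epcam* and *Krt8* as examples of their list. Other genes named for their values are said to be chosen after these were seen. Cell type markers were counted as lists. The limma p-values set the difference between the groups against the spread between libraries of a group. MEC preparations came from 3 to 5 females and each line had 1 library, so spread between single animals or within a line was not measured. Alternatives covered the pseudocount, filters, scaling, trend, fold-change threshold and each library left out.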

Additional observations from a re-analysis of the deposited data

How the results depend on the processing

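No paired analysis was possible because the groups share no replicate numbers. The number of genes called over the whole table was 738 when the filter was raised to a mean of 5 FPKM, a setting that tests fewer genes, and 259 to 1966 with each library left out. Among the 10 genes, those called higher were 0 with no filter on low values and 0 to 1 with a library left out, and those called lower were 0 with no filter and 0 to 2 with a library left out. With no filter on low values the limma adjusted p of *Tgfb3* was 0.0553 and that of *Bmp4* 0.0672, with more genes in the adjustment. Among the other pathway genes, those called lower were 11 with no filter, 12 with the higher filter and 3 to 33 with a library left out, and those called higher were 2 to 8 with a library left out. With no filter *Inhbb*, *Rgma*, *Bmpr1a* and *Ski* lost the call (limma adjusted p = 0.0764, 0.0726, 0.0529 and 0.0574). So did *Sostdc1*, *Pmepa1* and *Tnc* (0.0507, 0.051 and 0.066). *Bmpr1a* and *Ski* lost it with no mean-variance trend (0.0522 and 0.0511), and *Ski* with upper-quartile scaling (0.05). *Sostdc1* lost it with a pseudocount of 0.1 (0.0596) or quantile normalization (0.0546), and *Rgma* with the higher filter (0.0555). *Bmp1* is given above. Alternatives were run for 49 named genes, and the direction turned in 9 of them, none of which passed the thresholds with all libraries. With a library left out their log2 fold changes ranged from -1.37 to 0.27 for *Tgfb2*, -0.88 to 0.16 for *Tgfbr3*, -0.39 to 0.043 for *Smad3*, -0.36 to 0.091 for *Smad5*, -0.55 to 0.090 for *Smad6*, -0.061 to 0.18 for *Acvr2a*, -0.49 to 1.13 for *Bmp7*, -0.27 to 0.020 for *Thbs1* and -0.072 to 0.57 for *Id3*, and with a pseudocount of 0.1 that of *Bmp7* was -0.0063. Of 129 values of the 10 genes under the alternatives, 113 kept their direction and their side of the thresholds. The number of genes outside the MEC range was 7, 9 and 9 in lines 199, 233 and 336 with upper-quartile scaling, within 1 of the values above. Without a read number, the precision of low values such as those of *Bmp4* in MEC is not known. *Tgfbr3* and some named genes of low level were not tested under the higher filter and have no value there.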
